A study of Homo sapiens with 24 samples.

Results

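The MYC antibody and the HA antibody were compared within clone TB, a clone edited from HUDEP-2 cells. HUDEP-2 is an immortalised human line of erythroid progenitors. In this clone the repressor BCL11A carries 3 HA and 3 MYC epitopes and the nuclear receptor TR4 carries 3 FLAG and 3 MYC epitopes at its C-terminus. The MYC antibody therefore addresses both tagged proteins and the HA antibody BCL11A alone, in the same cells. The comparison uses 6 of the 24 libraries of the study, 3 with the MYC antibody and 3 with the HA antibody. Each library is a CUT&RUN profile, in which an antibody directs a nuclease to chromatin and the DNA released around the bound protein is sequenced. The values are the authors' peak lists, 1 per library. Peaks of all 24 libraries were merged into regions where they shared at least 1 base, and the 7349 of 79570 regions that held a peak of an IgG library were left out. A region was called a MYC region or a HA region where at least 2 of the 3 libraries of that antibody had a peak. By this rule there were 20429 MYC regions and 17956 HA regions among the 72221 regions of the whole series.

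Libraries set beside these were 3 with an antibody against TR4 in clone TB, 3 each with the MYC and TR4 antibodies in clone T, whose only tagged protein is TR4, and 3 each with the MYC and HA antibodies in clone B, whose only tagged protein is BCL11A. Each genotype is represented by 1 clone. All clones were expanded in the same medium with SCF, EPO, dexamethasone and doxycycline and received no further treatment. Whether libraries of one antibody and clone derive from separate cultures is not given in the labels. The p-values here therefore describe the spread between libraries only, and that spread may be technical. The study asked how TR4 might repress γ-globin and how its occupancy compares with that of BCL11A.

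BCL11A is a zinc finger protein that represses the fetal γ-globin genes in adult erythroid cells, and it is known to recognise the letters TGACCA. TR4, encoded by NR2C2, is an orphan nuclear receptor that dimerises with its relative TR2, encoded by NR2C1. These receptors bind direct repeats of the half-site AGGTCA, and in erythroid cells they are known as part of a repressor complex at globin promoters. The MYC epitope is a short stretch of the human MYC protein, so an antibody against it can also meet the cells' own MYC protein. How much that adds was not tested.

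Some of the strongest MYC peaks of clone TB lay at gene starts where no HA library had a peak. The first 5 promoters printed here were chosen because all 3 MYC libraries, no HA library and at least 2 TR4-antibody libraries of clone TB had a peak there, and because they hold 2 AGGTCA half-sites in direct repeat with 1 base between, allowing 1 mismatch in the 12 half-site letters. That search, on both strands, was added after the data had been seen. A sixth gene met the same conditions, AASS, which encodes an enzyme of lysine breakdown. It is not printed because its peaks were weaker, with MYC folds of 7.67, 8.56 and 8.81 and TR4-antibody folds of 6.06 and 6.10 in 2 libraries. Capitals mark the match. Each sequence runs 5′ to 3′ from 250 bases before the gene start to 50 bases after it, taken from RefSeq (GRCh38.p14), and each match lies inside the peak region.
RPRD1B, chr20:38033496-38033795, plus strand: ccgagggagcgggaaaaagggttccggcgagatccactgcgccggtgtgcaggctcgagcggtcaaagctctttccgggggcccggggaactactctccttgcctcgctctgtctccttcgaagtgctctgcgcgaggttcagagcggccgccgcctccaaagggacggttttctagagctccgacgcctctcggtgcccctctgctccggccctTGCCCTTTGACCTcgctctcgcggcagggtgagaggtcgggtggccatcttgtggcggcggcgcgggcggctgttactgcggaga
RAB11FIP2, chr10:118046892-118047191, minus strand: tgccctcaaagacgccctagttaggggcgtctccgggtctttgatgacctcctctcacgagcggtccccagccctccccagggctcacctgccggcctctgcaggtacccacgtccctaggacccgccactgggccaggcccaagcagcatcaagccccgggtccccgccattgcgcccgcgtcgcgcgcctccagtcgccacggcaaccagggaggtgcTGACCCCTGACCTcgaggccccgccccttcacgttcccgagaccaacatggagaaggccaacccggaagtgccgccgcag
SNRPF, chr12:95858702-95859001, plus strand: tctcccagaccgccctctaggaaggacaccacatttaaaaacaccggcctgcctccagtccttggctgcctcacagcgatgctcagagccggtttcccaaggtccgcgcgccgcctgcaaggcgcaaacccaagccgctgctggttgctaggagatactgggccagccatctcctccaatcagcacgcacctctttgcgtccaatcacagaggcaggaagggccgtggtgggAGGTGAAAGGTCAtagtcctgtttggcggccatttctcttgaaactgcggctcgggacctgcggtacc
ACBD3, chr1:226186692-226186991, minus strand: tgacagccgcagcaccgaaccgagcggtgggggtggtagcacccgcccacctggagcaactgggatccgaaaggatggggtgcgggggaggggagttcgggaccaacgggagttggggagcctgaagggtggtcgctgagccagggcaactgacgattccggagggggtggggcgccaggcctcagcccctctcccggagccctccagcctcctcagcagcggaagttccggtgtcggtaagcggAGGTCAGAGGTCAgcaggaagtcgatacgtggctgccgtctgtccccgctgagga
RPL34, chr4:108620326-108620625, plus strand: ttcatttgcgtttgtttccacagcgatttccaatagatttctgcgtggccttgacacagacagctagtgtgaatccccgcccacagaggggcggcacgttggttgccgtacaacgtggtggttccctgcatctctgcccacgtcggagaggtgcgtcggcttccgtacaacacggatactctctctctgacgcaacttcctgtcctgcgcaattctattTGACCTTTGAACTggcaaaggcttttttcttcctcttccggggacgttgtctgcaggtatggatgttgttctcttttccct
The opposite pattern is shown by the promoter of the histone H2B gene H2BC6, where all 3 HA libraries and no MYC or TR4-antibody library of clone TB had a peak. Its capitals mark TGACCA, again inside the peak region.
H2BC6, chr6:26183511-26183810, plus strand: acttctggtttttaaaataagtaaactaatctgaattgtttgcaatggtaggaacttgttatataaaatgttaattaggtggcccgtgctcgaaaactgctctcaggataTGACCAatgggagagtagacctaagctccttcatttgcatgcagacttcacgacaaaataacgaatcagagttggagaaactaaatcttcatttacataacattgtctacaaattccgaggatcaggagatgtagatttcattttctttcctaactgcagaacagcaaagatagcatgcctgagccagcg

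The match began 35 bases before the gene start in RPRD1B, 30 in RAB11FIP2, 18 in SNRPF, 5 in ACBD3 and 31 in RPL34. ACBD3 held the repeat with no mismatch, and the other 4 with 1. RPRD1B encodes a protein that binds the tail of RNA polymerase II, RAB11FIP2 an adaptor of recycling endosomes, SNRPF a core protein of the spliceosome, ACBD3 a Golgi adaptor and RPL34 a protein of the large ribosomal subunit.

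At RPRD1B the peak folds, which are the authors' own enrichment ratios and serve here only to describe and rank peaks within a list, were 284, 284 and 227 in the MYC libraries, and none of the 3 HA libraries had a peak. The TR4-antibody folds there were 179, 185 and 115. At RAB11FIP2 the MYC folds were 258, 291 and 227 and the TR4-antibody folds 218, 245 and 207, again without a HA peak. Both sites ranked among the strongest of every MYC list, with a mean fold percentile of 99.9 within the 3 lists, and yet were empty in every HA list.

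At SNRPF the MYC folds were 204, 233 and 171, beside TR4-antibody folds of 246, 254 and 179. ACBD3 had MYC folds of 115, 112 and 98.1, and RPL34 had 98.9, 84.1 and 66.5. H2BC6 showed the reverse at a lower scale, with HA folds of 10.3, 7.03 and 6.70 in its promoter region and no MYC peak. In clone B, where TR4 is untagged, 2 of 3 MYC libraries and 1 of 3 HA libraries had a peak at RPRD1B, at RAB11FIP2 and at SNRPF. A peak at these 3 sites was therefore also called in some libraries without a TR4 tag. Over all regions with 3 MYC and 0 HA libraries in clone TB, the highest MYC fold in clone B was 25.9 and the highest HA fold there 21.9.

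The MYC lists of clone TB held 25738, 24526 and 20928 peaks, and the HA lists 24078, 27021 and 15163. The third library of each antibody was the shortest, and the ranges overlap. The lists averaged 23731 ± 2502 peaks for MYC and 22087 ± 6175 for HA (SD, n = 3 each), a difference of 1643 that did not pass the exact permutation test (two-sided p = 0.8, adjusted p = 0.8 over 4 measures). Without the third HA library the sign of that difference turned, to -1819. Read counts were not analysed here, so depth is unknown and no interval that needs it is given. With 3 libraries against 3 the smallest two-sided p is 0.1, so no measure of this comparison could reach 0.05.

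Most of what the HA antibody found was also found by the MYC antibody. Of the MYC regions 74.0% were HA regions, and of the HA regions 84.2% were MYC regions, with 15110 shared. The other 5319 MYC regions were not HA regions, and 2846 HA regions were not MYC regions. Each share depends on which libraries are present. Without 1 of the HA libraries, a region then needing a peak in both that remain, the share of MYC regions that were HA regions was 49.4% without the first HA library, 48.9% without the second and 70.8% without the third.

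At the level of single libraries the Jaccard index, the shared regions over those in either list, averaged 0.575 between MYC libraries and 0.437 between HA libraries. Between a MYC and a HA library it averaged 0.473. The mean across antibodies minus the mean within antibodies was -0.0325, at the smallest p the design allows (exact permutation test, one-sided p = 0.1, adjusted p = 0.2). The 3 pairs of MYC lists, at 0.549 to 0.615, all lay above the 3 pairs of HA lists, at 0.374 to 0.533, and the lowest HA values were those of the third, shortest list. Without the first or the second MYC library the difference turned to 0.003 or 0.00607. With lists of equal length it widened, to -0.0715 at the 15163 strongest peaks and -0.205 at the 4621 strongest, each again at a one-sided exact permutation p = 0.1.

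**Figure D1:**
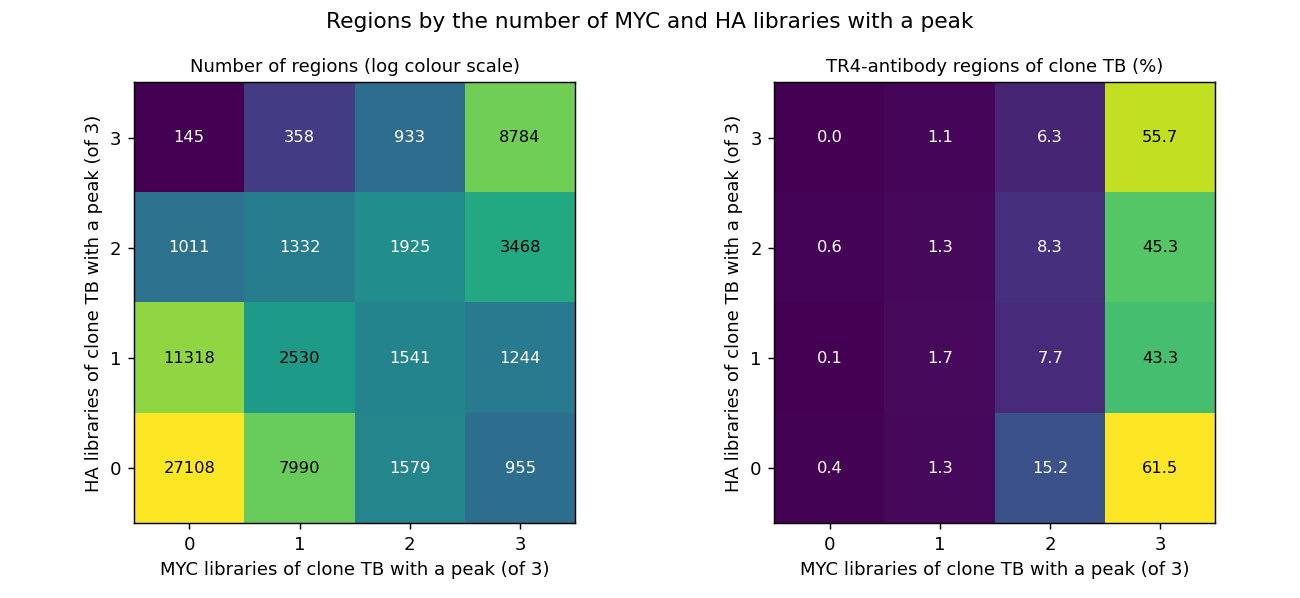
Number of regions (left, log colour scale) and percent of them that are TR4-antibody regions of clone TB (right), by how many of the 3 MYC libraries (horizontal) and 3 HA libraries (vertical) of clone TB had a peak. The right-hand column of each panel, a peak in all 3 MYC libraries, holds 43.3% to 61.5% TR4-antibody regions whatever the number of HA libraries, and the left-hand column at most 0.593%.

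Peaks of the TR4 antibody, which uses neither epitope, were found where all 3 MYC libraries had a peak, whether or not HA had one. Among the 8784 regions with a peak in 3 MYC and 3 HA libraries, 55.7% were TR4-antibody regions of clone TB, meaning that 2 or 3 of the TR4 libraries called a peak there. Among the 955 with 3 MYC and 0 HA libraries the share was 61.5% (587 regions), and among the 145 with 0 MYC and 3 HA libraries it was 0. Of all 45113 regions with a peak in any of the 6 libraries, 18.5% were TR4-antibody regions. The 955 regions are 2.12% of those 45113 and the 145 are 0.321%. In the plot of regions by number of libraries, the TR4 share changed mostly along the MYC axis. With no HA peak it was 0.398%, 1.33%, 15.2% and 61.5% at 0, 1, 2 and 3 MYC libraries. With a peak in no MYC library it was 0.398%, 0.0795%, 0.593% and 0 at 0, 1, 2 and 3 HA libraries.

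The number of regions with MYC alone or HA alone moved with the libraries used. The 955 regions became 1460, 1626 and 1916 without the first HA, the second HA and the third MYC library, since fewer libraries then have to be empty or full. The 145 regions became 227 to 943 when 1 of the 6 was left out, with the highest count without the third, shortest HA list. With that list left out, MYC alone held 1023 regions and HA alone 943. HA alone then needed a peak in fewer libraries, while MYC alone still needed all 3, so these counts follow unlike rules. With lists of equal length MYC alone still held more regions than HA alone. The counts were 975 against 298 at the 15163 strongest peaks and 882 against 380 at the 4621 strongest. For the mean over the 3 TR4 libraries, the difference between MYC alone and HA alone was 56.6 percentage points with all libraries, 55.4 without the third HA library and 37.3 to 65.8 over all single exclusions.

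The 8459 TR4-antibody regions of clone TB divide the same way. The MYC antibody covered 8167 of them (96.5%) and the HA antibody 6710 (79.3%). In 1484 there was a MYC region and no HA region, in 27 a HA region and no MYC region, and 265 had neither. Of the MYC regions 40.0% were TR4-antibody regions and of the HA regions 37.4%.

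As a share of each library's regions, TR4-antibody regions made up 33.5%, 35.0% and 39.2% with the MYC antibody, against 30.3%, 27.6% and 35.7% with the HA antibody. The third library, the shortest, was the highest in both groups, and the groups overlap. Means were 35.9 ± 2.95% for MYC and 31.2 ± 4.15% for HA (SD, n = 3 each), 4.72 percentage points apart (exact permutation test, two-sided p = 0.3, adjusted p = 0.4). The difference grew with lists of equal length, to 12 percentage points at the 15163 strongest peaks and 29.7 at the 4621 strongest, both at the smallest p possible (exact permutation test, two-sided p = 0.1). At 4621 the TR4 lists were cut too, so the TR4-antibody regions there are another set. With regions and TR4 lists as in the main setting, the difference at 4621 peaks was 23.7. In clone B, MYC libraries averaged 29.5 ± 7.92% and HA libraries 31.6 ± 7.75% (SD, n = 3 each), a difference of -2.12. The difference between the clones, 6.83 percentage points, did not pass (exact permutation of clone within antibody, 400 relabellings, two-sided p = 0.345). It was 12.6 at 15163 peaks and 28.7 at 4621 (exact permutation test, two-sided p = 0.05 and p = 0.06). The third MYC and HA lists of clone B, with 13429 and 12284 peaks, are shorter than 15163. That setting therefore did not give the clones lists of equal length. At 4621 peaks, with regions and TR4 lists as in the main setting, the clone difference was 22.7 (exact permutation test, two-sided p = 0.07).

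Gene-end regions, those lying within 1 kb of a protein-coding gene's start or 3′ end, made up 41%, 41.4% and 42.7% of the MYC libraries' regions, against 39.4%, 38.6% and 38.6% of the HA libraries'. All 3 MYC values lay above all 3 HA values. The means, 41.7 ± 0.93% for MYC and 38.9 ± 0.447% for HA (SD, n = 3 each), differed by 2.84 percentage points at the smallest p possible (exact permutation test, two-sided p = 0.1, adjusted p = 0.2). With peaks of −log10 q of at least 5 the difference was 0.86 (exact permutation test, two-sided p = 0.7), and with gene starts only it was 2.63.

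**Figure D2:**
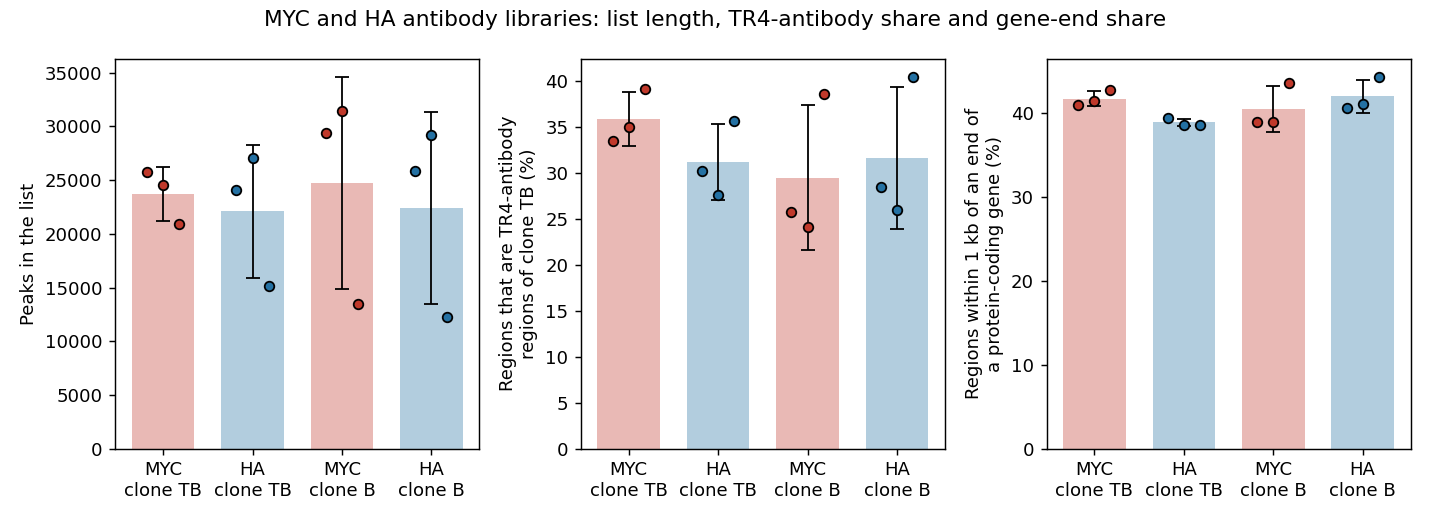
Peaks per list (left), percent of each library's regions that are TR4-antibody regions of clone TB (middle) and percent within 1 kb of an end of a protein-coding gene (right). Bars are means, error bars SD and points the 3 libraries of each antibody and clone, in the order of their replicate numbers. Only the gene-end share separates MYC from HA in clone TB, at 41% to 42.7% against 38.6% to 39.4%.

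The antibodies parted most among their strongest peaks. Of the regions under the 500 peaks with the highest −log10 q in each MYC list, 99.1%, 99.6% and 98.2% were TR4-antibody regions, against 76.0%, 75.8% and 68.0% for the HA lists. No MYC value overlapped a HA value. The means were 99.0 ± 0.67% for MYC and 73.3 ± 4.55% for HA (SD, n = 3 each), 25.7 percentage points apart (exact permutation test, two-sided p = 0.1, the smallest possible). In clone B the same 500 peaks gave 73.3 ± 6.84% with MYC and 73.8 ± 5.68% with HA (SD, n = 3 each). The clones differed by 26.2 percentage points in this MYC and HA difference (exact permutation test of clone within antibody, two-sided p = 0.045), which did not pass adjustment over the 10 tests of this kind (adjusted p = 0.0857). The unadjusted p was 0.06 to 0.075 without any 1 of 8 libraries: each MYC library or the third HA library of clone TB, the first or second TR4 library, and the first or second HA library of clone B.

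Gene ends separated the strongest peaks further. They accounted for 78.3%, 79.3% and 77.5% of the regions under the 500 strongest MYC peaks, against 50.4%, 49.2% and 45.0% for HA. In clone B the means were 55.1 ± 4.69% with MYC and 52.8 ± 3.3% with HA (SD, n = 3 each). The difference between the clones was 27.9 percentage points (exact permutation test, two-sided p = 0.015, adjusted p = 0.0375), and it was 25.2 to 29.8 with any 1 library left out. It shrank as more peaks were taken, to 18.6 at 1000 peaks, 12.5 at 2000 and 8.05 at 4621, the length of the shortest target list, each with adjusted p = 0.0375 by the exact permutation test, and to 4.72 at 10000 (adjusted p = 0.105). The HA lists of clone TB lay near both antibodies of clone B at every depth for the TR4 share. With full lists the clone difference in gene-end share was 4.36 percentage points (exact permutation test, two-sided p = 0.08). The tests on the strongest peaks were not planned, and the cut-offs other than 4621 were chosen after the data had been seen.

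**Figure D3:**
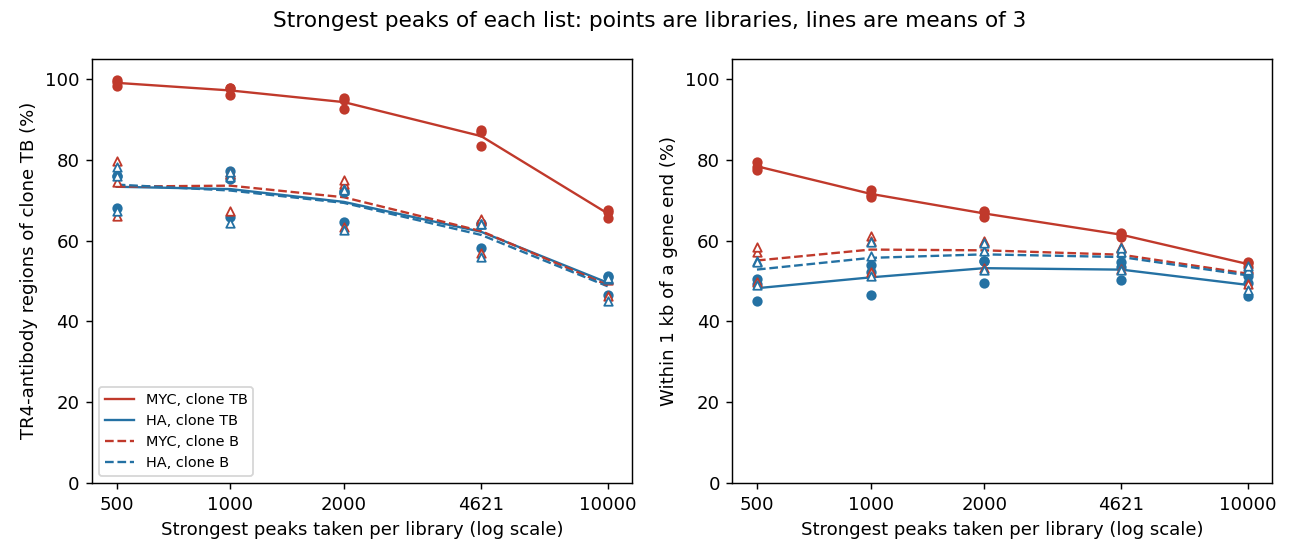
Percent of regions that are TR4-antibody regions of clone TB (left) and percent within 1 kb of a gene end (right), among the strongest 500 to 10000 peaks of each list by −log10 q (log scale). Points are libraries, filled for clone TB and open for clone B, and lines are means of 3. The MYC line of clone TB lies above the other 3 at every number of peaks, 99.0% against 73.3% for HA at 500 peaks in the left panel.

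The 955 regions of MYC alone had TR4-directed peaks in other libraries too. The TR4 antibody in clone TB had a peak in 67.1%, 67.2% and 39.7% of them, the lowest value belonging to its shortest list. Among the 145 regions of HA alone the same 3 libraries had a peak in 2.07%, 0.69% and 1.38%. The MYC antibody of clone T, where only TR4 is tagged, gave a MYC region in 67.4% of the MYC-alone regions and in 0.69% of the HA-alone regions.

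Peaks of clone B were more frequent in the HA-alone regions. The MYC antibody of clone B gave a region in 26.7% of the MYC-alone regions and in 44.1% of the HA-alone regions. The HA antibody of clone B gave one in 21.7% of the MYC-alone regions and in 58.6% of the HA-alone regions. The pattern of 3 MYC and 0 HA libraries, counted anew within clone B, was found in 57 regions, of which 0 were TR4-antibody regions, and the pattern of 0 MYC and 3 HA libraries in 28. The lists of clone B held 13429 to 31432 peaks with MYC and 12284 to 29178 with HA, and 7826 of its regions had all 3 of both.

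**Figure D4:**
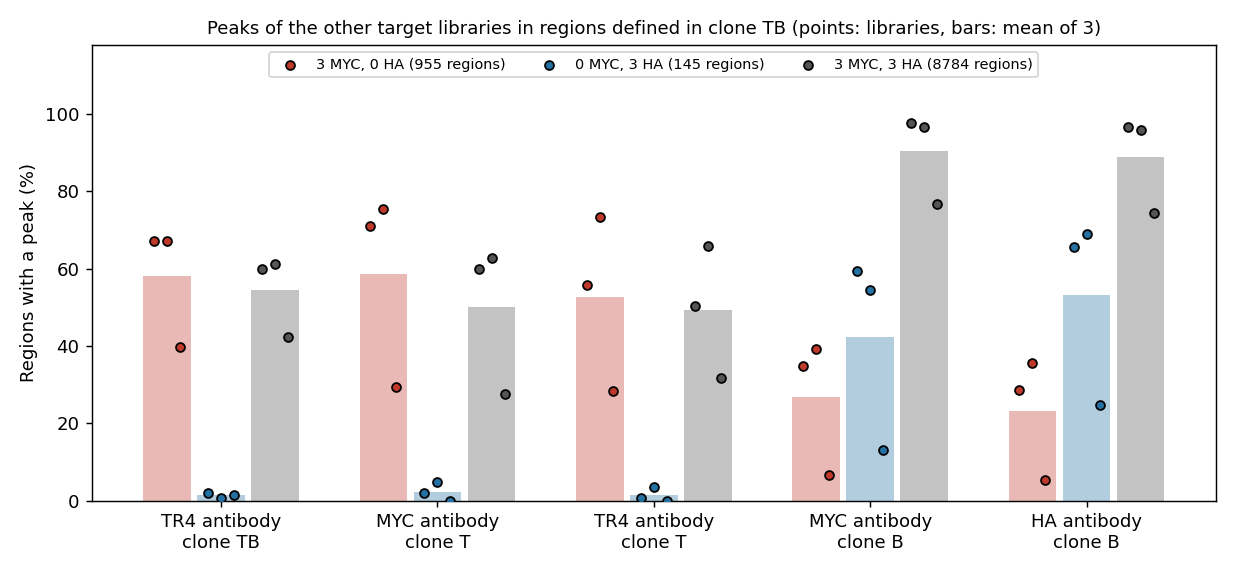
Percent of regions with a peak in libraries that were not used to define them, for regions with 3 MYC and 0 HA, 0 MYC and 3 HA, and 3 MYC and 3 HA libraries of clone TB. Points are libraries and bars means of 3. HA-alone regions had at most 4.83% with a peak in any TR4-directed library (TR4 antibody in clones TB and T, MYC antibody in clone T), and MYC-alone regions at least 28.5%.

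Among the MYC-alone regions, stronger MYC peaks went with more TR4-antibody libraries. The 349 regions with a peak in 3 TR4 libraries had a median of 18.1 for the mean MYC fold, the 238 with 2 had 10.1, the 139 with 1 had 8.38 and the 229 with none had 7.13. The highest mean fold among those 229 was 16, against 265 among the 349. Among those 229 there were 64 that clone T also had as MYC regions, 85 that clone B had, and 34 with no peak in either clone. MYC-alone regions were not always far from HA peaks: 176 of the 955 had a HA peak of clone TB within 500 bases, and 36 of the 145 HA-alone regions a MYC peak within 500 bases.

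The 6 strongest MYC-alone regions all lay at gene ends and all had TR4-antibody peaks. Beside RPRD1B (which shares its region with the start of TTI1, a partner of large signalling kinases), RAB11FIP2 and SNRPF, they were at TAF2 and DSCC1, CNOT2 and TMEM248. TAF2 is a subunit of the general transcription factor TFIID, DSCC1 belongs to a clamp loader of sister chromatid cohesion, and CNOT2 is a subunit of the main deadenylase complex. The region of TAF2 and DSCC1 had MYC folds of 250, 293 and 157. CNOT2 (chr12:70242595-70243509) had 194, 215 and 115, and TMEM248 (chr7:66920356-66921291) 191, 200 and 131. In each of the 6 the third MYC library had the lowest fold, and each had a peak in all 3 MYC and all 3 TR4-antibody libraries of clone T and in 2 of 3 MYC libraries of clone B. The HA antibody of clone B had a peak at CNOT2 in 2 of 3 libraries, at TAF2 and DSCC1 in 1 and at TMEM248 in 0.

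The strongest HA-alone regions were weaker. The first, chr11:65498890-65499131, holds a start of MALAT1, a nuclear long noncoding RNA, and had HA folds of 26.0, 36.9 and 20.0. The next, chr12:120291990-120292271, lies at the start of SIRT4, a mitochondrial sirtuin gene, and had 25.5, 16.9 and 21.5. At the start of the linker histone gene H1-3 (chr6:26233563-26235114) the folds were 17.4, 23.8 and 11.4. The other 3 lay 7830 to 32779 bases from the nearest end of a protein-coding gene, near AQP10 and inside MFSD6 and LRRC8B, with folds of 10.6 to 22.9. The region inside MFSD6 nevertheless holds an annotated start of that gene. None of the 6 had a TR4-antibody peak in clone TB, and each had a peak in at least 1 HA library of clone B.

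Regions with the strongest peaks of both antibodies did not all look alike in their TR4 peaks. KMT5A, a histone methyltransferase gene (chr12:123383326-123384205), had MYC folds of 283, 279 and 304 and HA folds of 143, 178 and 143, with TR4-antibody folds of 122, 133 and 47.1. SPRYD7 (chr13:49936268-49936669) had MYC folds of 151, 158 and 88.1 and HA folds of 161, 187 and 107, but TR4-antibody folds of only 12.9, 6.33 and 6.01. At SPRYD7 the MYC and HA ranges overlap, and at KMT5A they do not. A region 4786 bases from the nearest end of the zinc finger gene ZNF77 (chr19:2949757-2950984) had MYC folds of 281, 260 and 187, HA folds of 52.7, 51.1 and 25.4 and TR4-antibody folds of 260, 267 and 150.

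**Figure D5:**
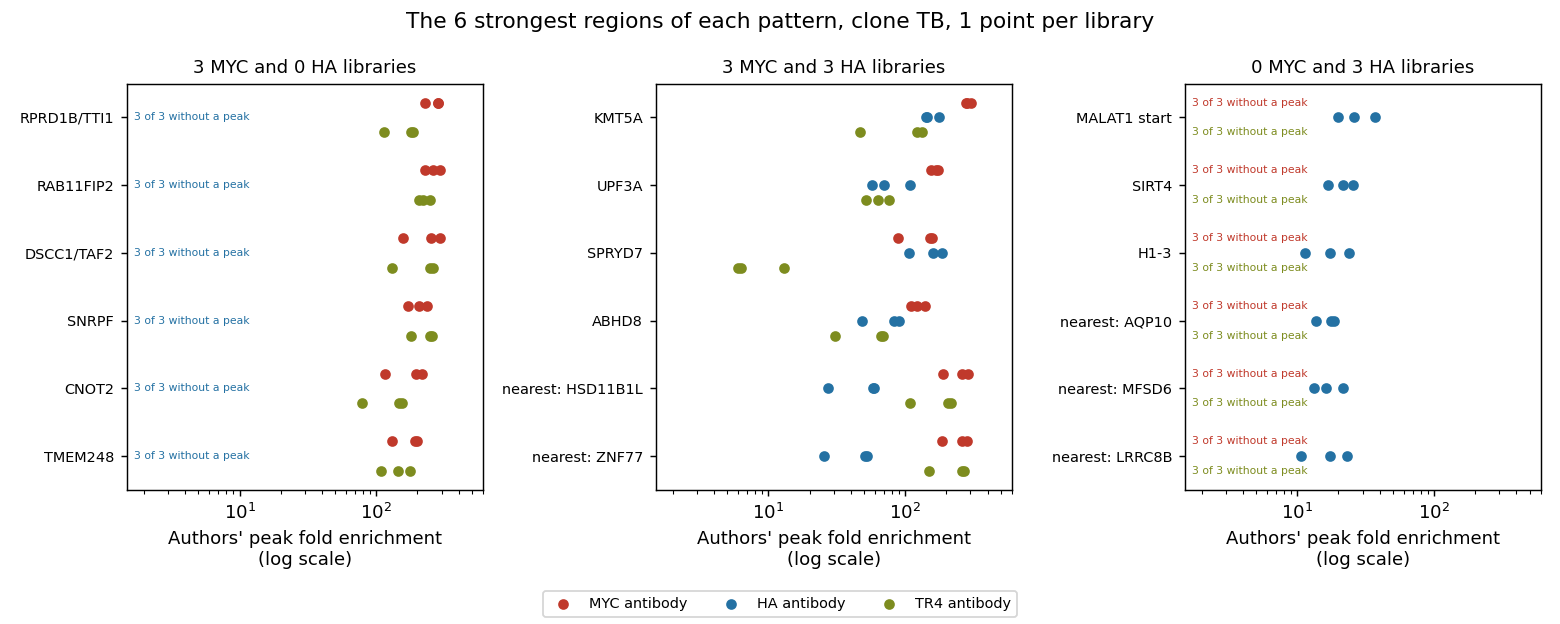
The authors' peak fold enrichment (log scale) in the MYC, HA and TR4-antibody libraries of clone TB at the 6 regions per pattern whose mean fold percentile was highest, named by the genes at or nearest to them. Each point is 1 library and a library without a peak is given in words. MYC-alone regions had MYC folds of 115 to 293 and no HA peak, and HA-alone regions had HA folds of 10.6 to 36.9 and no MYC peak.

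Summits were compared in the 2614 regions that had exactly 1 peak in each of the 9 MYC, HA and TR4-antibody libraries of clone TB, of 3436 with a peak in all 9. The median distance between the MYC and the TR4 summit was 18, 18 and 20 bases in replicates 1 to 3. Between the MYC and the HA summit it was 23, 24 and 25 bases, and between the HA and the TR4 summit 28.5, 28 and 33. For scale, summits of different MYC libraries lay 16 to 18 bases apart, of TR4 libraries 16 to 21 and of HA libraries 21 to 27. The MYC to TR4 distance fell inside the range between TR4 libraries, and HA summits lay farther apart among themselves than MYC or TR4 summits, apart from a tie at 21. Regions are not replicates, so these medians carry no test.

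Of 22077 RefSeq promoters of protein-coding genes, 258 overlapped a MYC-alone region and 21 a HA-alone region. AGGTCA on either strand was found in 19.8% of the 258, in 0 of the 21, in 9.5% of the 4316 promoters with 3 MYC and 3 HA libraries and in 11.9% of all. The full repeat of AGGTCA with 1 base between and no mismatch was in 1 of the 258 and 5 of all. With up to 1 mismatch it was in 7 of the 258 (2.71%), all of them in TR4-antibody regions and for 6 genes, the 5 printed and AASS, against 0.317% of all promoters. Among promoters with 3 MYC and 3 HA libraries the share was 0.278%.

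TGACCA was found in 7.36% of the MYC-alone promoters, 14.3% of the HA-alone promoters (3 of 21) and 9.33% of all. TGACCA differs only in its last letter from TGACCT, the reverse complement of AGGTCA. The E-box CACGTG, known for MYC with its partner MAX, was in 10.1% of MYC-alone promoters, 0 of the HA-alone, 11.9% of those with both and 8.32% of all. AGATAA, known for GATA factors, was in 4.65%, 9.52% (2 of 21), 4.08% and 7.93% of the same 4 sets. A match describes the letters in these windows and does not show that a protein binds there.

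Over 20033 protein-coding genes, 8596 (42.9%) had a MYC region within 1 kb of either end and 7779 (38.8%) a HA region. Those with a MYC region and no HA region numbered 1252 (6.25%), of which 511 had a TR4-antibody region, and those with a HA region and no MYC region 435 (2.17%). The difference of 817 genes turned to -291 without the first MYC library and to -183 without the second. The gene lists below were compiled with earlier results on these libraries known. Library counts and folds given for a gene cover all its regions within 1 kb of either end, with the highest fold per library. They can therefore come from more than 1 region. The median gene of all 20033 had a peak in 0 MYC and 0 HA libraries.

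Genes of oxidative phosphorylation make up the respiratory chain and ATP synthase of mitochondria. Of 74 genes 63 had a MYC region and 48 a HA region. A MYC region only was found at 15 (20.3%, beside 6.25% of all genes), 8 of them with a TR4-antibody region, and a HA region only at none (beside 2.17%). Without the third HA library the counts were again 48 and 15. Without another of the 6 libraries MYC only ranged from 8 to 28. It was 8 without the first MYC library (10.8%, beside 3.86% of all genes). It was 28 without the first or second HA library (37.8%, beside 16.3% and 16.6%). HA only held 2 genes without the first or the second MYC library (2.70%, beside 5.32% and 5.04%). With lists limited to 15163 peaks MYC only held 10 (13.5%, beside 6.33%) and HA only none. With 4621 peaks MYC only held 13 (17.6%, beside 6.13%) and HA only 4 (5.41%, beside 3.54%). SDHD, a membrane anchor of succinate dehydrogenase, had MYC folds of 101, 103 and 57.5, no HA peak, and TR4-antibody folds of 154, 170 and 98.4. NDUFA13 and NDUFA12, subunits of complex I, also had a peak in 3 MYC and 0 HA libraries, with MYC folds of 12.9, 11.8 and 8.29 for NDUFA13 and 10.4, 5.78 and 5.54 for NDUFA12.

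Of 31 proteasome genes 25 had a MYC region and 20 a HA region. MYC only held 5 (16.1%, beside 6.25% of all genes) and HA only none. With 1 library left out MYC only held 4 to 14, the highest without the second HA library, and HA only 0 to 2. With lists limited to 15163 peaks MYC only held 5 (16.1%, beside 6.33%) and HA only 1. With 4621 peaks MYC only again held 5 (16.1%, beside 6.13%) and HA only none. PSMB7, a catalytic subunit of the core particle, had MYC folds of 86.4, 77.5 and 59.0, no HA peak and TR4-antibody folds of 101, 102 and 53.6. PSMC2, an ATPase of the regulatory particle, had weaker MYC folds of 5.75, 13.1 and 6.10 and no HA peak either. The median proteasome gene had a peak in 3 MYC and 2 HA libraries.

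Of 79 ribosomal protein genes 66 had a MYC region and 67 a HA region (83.5% and 84.8%, beside 42.9% and 38.8% of all genes). MYC only held 3 (3.80%, beside 6.25%) and HA only 4 (5.06%, beside 2.17%). Beside RPL34, RPS3A of the small subunit had MYC folds of 88.0, 77.0 and 85.5, a HA peak in 1 library at a fold of 7.05 and TR4-antibody folds of 98.4, 98.8 and 81.8. RPL21 went the other way, with HA folds of 6.55, 15.3 and 8.52 and a MYC peak in 1 library at 6.34. Genes of nucleolar ribosome biogenesis known as MYC targets had 25 of 32 at a MYC region and 24 at a HA region. Other known MYC targets had 27 and 26 of 30, with 2 MYC only and 1 HA only in each list. The MYC-only shares, 6.25% and 6.67%, were near the 6.25% of all genes. The HA-only shares were 3.1% and 3.3%, beside 2.17%. RRP12 of the nucleolus had MYC folds of 28.6, 18.4 and 14.2 and a HA peak in 1 library at 4.92. CCND2, a cyclin, had no MYC peak and HA peaks in 2 libraries at 7.44 and 9.65.

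Among heme and iron genes 23 of 27 had a MYC region and 23 a HA region (85.2% each, beside 42.9% and 38.8% of all genes). There were 2 of each kind alone (7.41% each, beside 6.25% MYC only and 2.17% HA only). UROS, a synthase of the heme pathway, had MYC folds of 48.4, 52.6 and 43.3, no HA peak and TR4-antibody folds of 41.7, 49.1 and 37.2. NFS1, the desulfurase that feeds iron-sulfur clusters, had 55.4, 53.7 and 32.6 with MYC and a single HA peak at 5.87.

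Replication-dependent histone genes are a list added after their values were seen. Of 70 genes 53 had a MYC region and 63 a HA region. None had a MYC region only and 10 had a HA region only (14.3%, beside 2.17% of all genes). HA only held 18 genes without the first MYC library (25.7%, beside 5.32% of all genes) and 17 without the second (24.3%, beside 5.04%). Without the first or second HA library HA only held 9 (12.9%, beside 0.614% and 0.489%). With lists limited to 15163 and 4621 peaks HA only held 26 (37.1%, beside 3.25%) and 51 (72.9%, beside 3.54%). H1-3, H4C5 and H2BC6 had a peak in 0 MYC and 3 HA libraries, with HA folds of 8.13, 11.5 and 7.11 for H4C5. Histone genes of one class are near-identical and lie in clusters, so how reads were shared among copies is uncertain. In clone B, H1-3 had a peak in 2 MYC and 3 HA libraries, and H4C5 and H2BC6 in 2 and 2. The peak region of the printed H2BC6 promoter by itself had 1 MYC and 2 HA libraries of clone B.

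The genes of the tagged proteins and their partners were peak sites themselves. NR2C2, which encodes TR4, had MYC folds of 107, 141 and 109, HA folds of 18.9, 27.5 and 14.4 and TR4-antibody folds of 112, 113 and 55.5. NR2C1, which encodes TR2, had MYC folds of 157, 179 and 112, HA peaks in 2 libraries at 9.16 and 7.67 and TR4-antibody folds of 92.0, 138 and 86.4. At both genes the MYC and HA values do not overlap. BCL11A had MYC folds of 14.5, 13.6 and 11.1 and HA folds of 12.1, 19.4 and 7.43, and there they do. ZBTB7A, another γ-globin repressor gene, had MYC folds of 30.7, 33.0 and 24.8 and HA folds of 24.2, 21.6 and 11.7.

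Lists of regulators differed by few genes. Of 25 fetal globin regulators 22 had a MYC region and 21 a HA region. For the corepressor partners of TR2 and TR4 it was 9 and 9 of 13, for the NuRD remodelling complex 10 and 9 of 13, for SR splicing factors 13 and 13 of 14, for erythroid transcription factors 19 and 18 of 23 and for red cell membrane genes 11 and 11 of 22. Nuclear receptor genes had 16 and 13 of 26. Of all genes 42.9% had a MYC region and 38.8% a HA region. Nearest to these were red cell membrane genes, at 50% with each antibody, and nuclear receptor genes, at 61.5% and 50%. The other lists named here had 69.2% to 92.9%. RARA, a retinoic acid receptor, had MYC folds of 11.2, 9.11 and 15.5 and a HA peak in 1 library at 9.20. CHD3 of NuRD had MYC peaks in 2 libraries at 6.06 and 7.20 and no HA peak, and MTA2 of the same complex had MYC folds of 44.4, 35.4 and 18.4 and HA peaks in 2 libraries at 12.7 and 9.87.

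Genes of other lineages were nearly free of peaks with either antibody. Of 25 lymphoid and neural genes 1 had a MYC region and 1 a HA region. Of the olfactory receptor genes 0.51% had a MYC region and 0.765% a HA region, beside 42.9% and 38.8% of all genes. Among 12 genes of the globin loci 9 had a MYC region and 10 a HA region. Of red cell membrane genes 50% had a region with each antibody, and of ribosomal protein genes 83.5% and 84.8%. Such peaks name no cell type. No RNA was measured, so the erythroid identity of the clone was not checked.

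At the globin genes the antibodies mostly had peaks at the same sites, and TR4-antibody peaks were mostly absent. The region at HBG1 (chr11:5249725-5250045) had MYC folds of 9.20, 12.1 and 6.10 and HA folds of 17.2, 19.8 and 18.4, and the TR4 antibody had no peak. HBG2 (chr11:5254699-5254970) had MYC folds of 9.45, 11.8 and 7.19, against HA folds of 25.9, 17.7 and 16. At both γ-globin genes every HA fold lay above every MYC fold, though the folds of different lists are not on 1 scale. Clone B had a peak at each γ-globin gene in 1 of 3 MYC and 1 of 3 HA libraries. HBG1 and HBG2 are near-identical copies, as are HBA1 and HBA2, and how reads were shared between copies is uncertain.

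At HBB, which had regions near both ends, the highest MYC folds per library were 7.27, 14.2 and 8.55. The highest HA folds were 13.2, 14.6 and 8.51, and the ranges overlap. HBD, the minor adult globin gene, was the 1 globin gene with a HA region only, with HA peaks in 2 libraries at 10.5 and 7.48 and no MYC peak. Upstream of the embryonic gene HBE1, in the stretch known as the locus control region, a region at chr11:5280584-5281046 had MYC folds of 42.6, 44.7 and 46.5, HA folds of 43.5, 43.5 and 43.5 and TR4-antibody folds of 15.2, 17.9 and 24. This was the strongest site of the β-globin locus with either antibody. At HBA1 of the α-globin locus the MYC folds were 19.8, 14.5 and 12.8 and the HA folds 28.4, 30.4 and 22.3, and at HBA2 they were 10.6, 13.5 and 10.2 for MYC and 11.9, 22.5 and 17.8 for HA. HBA1 was also a TR4-antibody region of clone TB, with folds of 10.6 and 9.28 in 2 libraries. HBA2 had a TR4-antibody peak in 1 library, at 6.45, and HBB and HBD had none.

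The other listed genes of the globin loci had no TR4-antibody peak in clone TB. In clone T, 1 TR4-antibody library had a peak at BGLT3 and 1 at HBM. BGLT3, a noncoding gene between the γ-globin genes and HBD, had a region at chr11:5244703-5244939. There the MYC folds were 13.8 and 20 and the HA folds 18.9 and 23.7, with no peak in the third library of either antibody. The pseudogene HBBP1 had MYC folds of 9.78, 11.6 and 13.9 and HA folds of 16.6, 18.2 and 14.5. These belong to chr11:5243518-5243928, which also lies within 1 kb of BGLT3. In the pair of genes, MYC and HA overlap at BGLT3 and not at HBBP1. HBZ, the embryonic α-like gene, had MYC folds of 15, 12.1 and 21.6 and HA folds of 11.9, 16.6 and 13.4. HBM had MYC folds of 16.3, 14 and 8.87 and HA peaks in 2 libraries at 11.7 and 11.8. HBQ1 had 1 peak with each antibody, at 5.42 with MYC and 8.02 with HA, and HBE1 had no MYC peak and 1 HA peak at 4.02.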

How the data were processed

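CUT&RUN was profiled in 3 edited HUDEP-2 clones, 7 groups of 3 libraries and 3 IgG libraries. The submitters' processing notes name MACS2 2.1.4, Bowtie2, SAMtools, Picard and Trimmomatic, and the GRCh38 build, without saying which did what or with which settings. Every library has its own peak list, deposited by the authors. For each peak the authors gave a linear fold over background, a −log10 q-value (the lowest in any list just above 2.00) and a summit offset. Depth is unknown. Both list length and the weakest peaks of a list can move with depth, and a missing peak is not a measured absence.

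Python 3.11.15 with numpy 2.4.6 and pandas 2.3.3 merged peaks, counted regions and ran the exact permutation tests, which were tested on simulated data. The Benjamini-Hochberg adjustment covers the 4 measures per library. Single regions were not tested, because 3 libraries against 3 cannot pass 0.05, so the patterns of 3 against 0 were counted. Gene ends and promoters came from RefSeq tables (GRCh38.p14), which give no exons, so exon, intron and UTR are not stated. NDUFA4 and ETO2 did not match a protein-coding symbol and were not counted.

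Members and lists were chosen with earlier results of these data known. The text names all globin genes, NR2C2, NR2C1, BCL11A, ZBTB7A, up to 3 members per list with the largest difference between the number of MYC and HA libraries with a peak, and per pattern the 6 regions ranked first by mean fold percentile, of which it prints those its comparisons need. ACBD3, RPL34 as a printed promoter, AASS and H2BC6's promoter came from the motif search added later. Some genes picked by this rule are not printed, since no comparison needs them, and 1 result is not reported here. The gene list counts without single libraries and at equal list lengths were added after seeing the data. Alternatives were a −log10 q of at least 5, equal list lengths, windows of 100 bases around summits, a peak in 3 of 3 libraries, IgG regions kept, clone TB merged alone, other gene windows, each library left out, and a replicate block.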

Additional observations from a re-analysis of the deposited data

Results flagged for a closer look

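The difference between the MYC and HA antibodies was set against the same difference in clone B by permuting clone within antibody, and 5 of the 10 such tests on the strongest peaks had an exact p under 0.05. For the share of regions within 1 kb of a gene end, the difference in clone TB exceeded that in clone B by 27.9 percentage points at 500 peaks, 18.6 at 1000, 12.5 at 2000 and 8.05 at 4621, each with an exact permutation p of 0.015 (adjusted p = 0.0375). For the share of TR4-antibody regions at 500 peaks it was 26.2 percentage points (exact permutation p = 0.045, adjusted p = 0.0857), which did not pass the adjustment. The sets of peaks are nested, so these tests are not independent, and they were not planned. The smallest p of the 400 relabellings is 0.005.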

How the results depend on the processing

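Of 221 recomputed values 168 kept their direction, side of the threshold or size. The MYC minus HA tests of clone TB cannot give p under 0.05, so those values counted as kept unless their sign turned. The difference in TR4 share was so counted at 29.7 percentage points with 4621 peaks, from 4.72 in the main setting. This count therefore does not measure how far such values moved. Lists limited to their 4621 strongest peaks gave 60.1% of MYC regions as HA regions, 62.0% of HA regions as MYC regions, 380 regions of HA alone, a TR4-antibody difference between MYC alone and HA alone of 90.4 percentage points and a difference of 520 genes. At 15163 peaks, a length added after seeing the data, these were 78.7% of HA regions as MYC regions, 298 regions of HA alone and 73.5 percentage points. The TR4-antibody lists were cut to 4621 peaks as well, so the 90.4 percentage points rest on another set of TR4-antibody regions. A peak in 3 of 3 libraries gave 60.8% of MYC regions as HA regions and a difference of 1986 genes. The clone difference in TR4 share at 500 peaks lost p under 0.05 with 3 of 3 libraries (35.2, p = 0.07), IgG regions kept (25.5, p = 0.06), 1000 peaks (23.2), 2000 peaks (23.3) and 10000 peaks (16.8), all by exact permutation, and without any of 8 libraries (p = 0.06 to p = 0.075), as did that in gene-end share at 10000 peaks (4.72). The cause was not tested.

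With each library left out the list length difference ran from -1819 to 4110, the share of MYC regions that were HA regions from 48.9% to 82.1%, that of HA regions from 70.9% to 93.5%, regions of MYC alone from 1023 to 1916, of HA alone from 227 to 943, the Jaccard difference from -0.0783 to 0.00607, the gene difference from -291 to 3224, the TR4 difference of the regions alone from 37.3 to 65.8 and the clone difference in TR4 share at 500 peaks from 22.5 to 34.4. Values turned sign for the list length without the third HA library (-1819), the Jaccard index without the first (0.003) or second (0.00607) MYC library, and the genes without the first (-291) or second (-183) MYC library. Fewer libraries then define a region. List length has no value at equal list lengths, the clone difference none with clone TB merged alone.

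Same-numbered MYC and HA libraries correlated at 0.0491, 0.0179 and 0.0845 in their deviations, each the best of its row and column. Pairs with different numbers correlated at -0.0641 to 0.0167. All these values are low, so whether replicate numbers pair the libraries is not settled by the data. With the replicate block, exact sign-flip tests gave p = 0.75 for list length and p = 0.25, the smallest possible, for the TR4 share (4.72) and the gene-end share (2.84). For the clone difference in TR4 share (6.83), pairing gave p = 0.1 by exact permutation.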

Other observations

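The 4 strongest regions of MYC alone without any TR4-antibody peak in clone TB, a selection made after the values were seen, had MYC folds of 11.4 to 21.8. The first, chr11:7810212-7810457, lies 13270 bases from the nearest gene end, of OR5P2, and had MYC folds of 14.4, 15.7 and 16.7, with a peak in 3 MYC and 2 TR4-antibody libraries of clone T and none in clone B. The second, chr3:77103228-77103396, lies inside ROBO2 and had MYC folds of 12.1, 14.2 and 21.8, with no peak in any library of clones T and B. The third, chr17:4807009-4807185, at the starts of C17orf114 and PLD2, had MYC folds of 13.6, 11.4 and 17.4, with a peak in 2 MYC and 1 TR4-antibody library of clone T and in 3 MYC and 2 HA libraries of clone B. The fourth, chr2:69830395-69830529, lies inside GMCL1 and had 15, 12.1 and 13.9, with a peak in 1 MYC library of clone T and 1 HA library of clone B.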
